A study of Mus musculus with 20 samples.

Results

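Accessible chromatin of intestinal mesenchymal cells was compared between control and *Eed* KO mouse embryos at E13.5. All peaks of both intestinal ATAC-seq lists were taken and merged wherever they shared at least 1 bp. This gave 133402 intestinal regions, of 162113 regions obtained when the intestinal and gastric lists were merged together. A region with peaks in both genotypes is called shared, a region with a peak in *Eed* KO alone is called gained, and a region with a peak in control alone is called lost. There were 88142 shared regions (66.1%), 30424 gained regions (22.8%) and 14836 lost regions (11.1%).

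The series profiled 20 samples of mouse gut mesenchyme by ATAC-seq and RNA-seq, from embryonic intestine and stomach and from adult intestine, of which the embryonic samples were used. Control embryos were *Bapx1*-cre;*Rosa26*mTmG and KO embryos were *Eed*fl/fl;*Bapx1*-cre;*Rosa26*mTmG, all labelled as strain C57BL/6. The study's methods describe mixed backgrounds, with the floxed *Eed* allele on 129 x C57BL/6, so strain differences that travel with this allele cannot be told apart from the loss of *Eed*. *Bapx1*-cre acts in the mesenchyme of the gut tube, and the reporter turns cells with a history of Cre from membrane Tomato to membrane GFP, so that GFP+ cells were sorted in both genotypes and control cells carry Cre as well. For each genotype, 2 ATAC-seq replicates were pooled before peaks were called, which leaves 1 list per genotype. No spread between replicates and no test can therefore be given for any value taken from the peaks, and all such comparisons are descriptions of 4 lists.

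EED is a core subunit of Polycomb repressive complex 2 (PRC2), the enzyme complex that methylates lysine 27 of histone H3. This mark keeps developmental regulators, such as homeobox transcription factors, silent in cells that do not use them, and many of their promoters are rich in CpG dinucleotides. ATAC-seq reads out where a transposase can insert adapters into chromatin, so that nucleosome-poor promoters and enhancers appear as peaks. For every peak, MACS2 reports the enrichment of reads over local background as a fold, together with a -log10 q that grows with the evidence for the peak.

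Sequences of a few peaks show the range of loci behind the results. They are from GRCm38.p6, plus strand, at most 300 bases around the peak centre, with CpG dinucleotides in capitals. The promoter peaks of *Cdkn2a* (chr4:89294924-89295223) and *Barx1* (chr13:48662868-48663167) are shown because both were open in control and KO while RNA of these genes rose. That of *Mecom* (chr3:30546877-30547176) was present in KO alone.
Cdkn2a: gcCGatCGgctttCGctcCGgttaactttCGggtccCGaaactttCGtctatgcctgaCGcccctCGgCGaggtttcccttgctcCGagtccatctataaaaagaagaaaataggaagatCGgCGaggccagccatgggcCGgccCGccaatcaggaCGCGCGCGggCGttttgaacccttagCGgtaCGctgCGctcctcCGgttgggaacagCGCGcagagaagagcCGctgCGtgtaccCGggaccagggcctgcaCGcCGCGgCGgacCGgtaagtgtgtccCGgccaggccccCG
Barx1: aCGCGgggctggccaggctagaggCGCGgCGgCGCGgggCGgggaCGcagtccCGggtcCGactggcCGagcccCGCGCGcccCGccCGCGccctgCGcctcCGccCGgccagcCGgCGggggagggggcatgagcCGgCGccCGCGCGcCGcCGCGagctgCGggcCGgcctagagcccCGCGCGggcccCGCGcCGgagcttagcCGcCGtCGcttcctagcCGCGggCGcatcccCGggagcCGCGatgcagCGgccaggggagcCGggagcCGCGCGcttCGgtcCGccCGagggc
Mecom: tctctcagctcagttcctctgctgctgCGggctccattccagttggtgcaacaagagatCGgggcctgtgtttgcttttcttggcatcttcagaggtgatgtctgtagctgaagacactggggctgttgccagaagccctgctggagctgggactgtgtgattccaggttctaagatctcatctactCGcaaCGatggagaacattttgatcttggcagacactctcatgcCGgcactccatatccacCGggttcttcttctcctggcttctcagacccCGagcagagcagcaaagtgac
The *Cdkn2a* and *Barx1* windows hold 36 and 56 CpG dinucleotides, against 7 in the *Mecom* window.

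Gained and lost regions with the highest -log10 q were different in kind. Among them are a peak at the start of the predicted gene *Gm13277* in the interferon cluster (chr4:88788488-88788693), a peak in an intron of the interleukin receptor gene *Il31ra* (chr13:112578179-112578309), and a lost peak in an intron of *Srek1ip1* (chr13:104742993-104743134).
Gm13277: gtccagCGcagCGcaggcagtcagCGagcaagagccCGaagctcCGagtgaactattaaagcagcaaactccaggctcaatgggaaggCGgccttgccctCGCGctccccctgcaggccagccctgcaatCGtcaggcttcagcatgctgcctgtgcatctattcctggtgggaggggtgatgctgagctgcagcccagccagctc
Il31ra intron: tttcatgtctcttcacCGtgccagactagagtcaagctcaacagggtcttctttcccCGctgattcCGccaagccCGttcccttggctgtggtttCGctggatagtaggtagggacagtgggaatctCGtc
Srek1ip1 intron: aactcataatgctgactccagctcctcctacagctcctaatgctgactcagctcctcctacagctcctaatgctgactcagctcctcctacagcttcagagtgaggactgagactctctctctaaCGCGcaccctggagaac
These peaks were chosen for their strength, and how often their sequences recur in the genome is given with their values.

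Most accessible chromatin was common to both genotypes, and regions found in 1 genotype were short and weak. Shared regions had a median width of 793.5 bp, against 263 bp for gained and 257 bp for lost regions. The median fold enrichment in the list that held the peak was 2.72 for gained and 2.78 for lost regions, whereas shared regions had 4.14 in control and 3.97 in KO. Gained regions covered 12.4% and lost regions 5.49% of all accessible bases. The *Eed* KO list was the longer of the lists, with 119181 peaks over 86.3 Mb against 103808 peaks over 73.8 Mb, and its peaks had a lower median fold enrichment, 3.49 against 3.81. The excess of gained over lost regions depended on where the lists end. With a -log10 q of at least 5 required in both lists, 10315 regions were gained and 9072 were lost, and with the 80000 strongest peaks of each list the numbers were 13984 and 13814.

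A peak that was strong in its own list and missing from the other was more frequent in KO than in control at every strength. Among KO peaks with a -log10 q from 5 to 10, 13.0% had no counterpart in control, whereas 5.43% of control peaks of that strength had none in KO. From 10 to 20, these shares were 4.84% and 0.876%, and at 20 and over they were 0.482% and 0.0663%. In numbers, 3815 gained and 1289 lost regions had a -log10 q of at least 5 and no peak at all in the other list. At a -log10 q of at least 20 there were 98 gained and 14 lost regions. The number of reads behind each list is unknown, and its part in these shares was not tested.

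**Figure D1:**
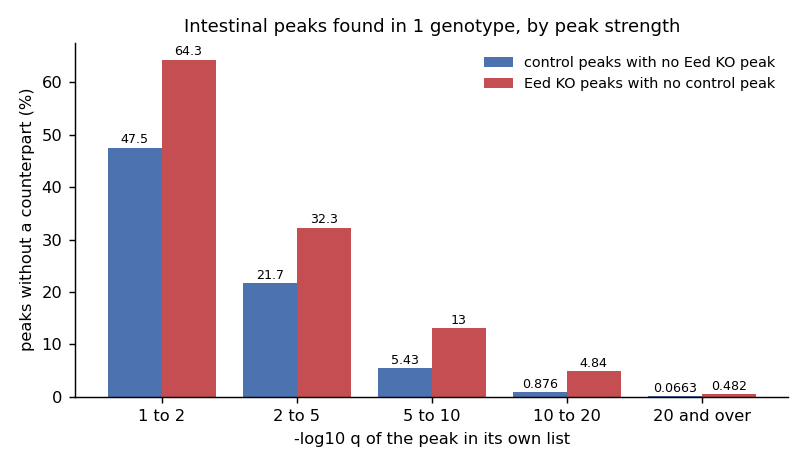
Share of intestinal peaks without any overlapping peak in the other genotype (percent, vertical axis) by the -log10 q of the peak in its own list (horizontal axis), for control and *Eed* KO peaks. Shares fall from 47.5% and 64.3% in the weakest bin to 0.0663% and 0.482% in the strongest, and the KO bar is the higher in all 5 bins.

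Gained and lost regions lay away from gene starts. Promoters, within 1000 bp of the outermost start of a gene, held 17.8% of shared regions but 3.65% of gained regions (1110 regions) and 2.42% of lost regions (359 regions). Introns held 41.3% of gained and 46.2% of lost regions, against 33.8% of shared ones, and the intergenic share was 46.5%, 43.1% and 38.0%. The median distance to the nearest gene start was 24581 bp for gained, 30375 bp for lost and 18293 bp for shared regions. On chromosome X, 16.4% of 2104 regions were gained and 13.1% lost, whereas the autosomes ranged from 20.1% to 25.6% gained and from 9.82% to 12.5% lost. The lost share was highest and the gained share lowest on this chromosome. *Xist*, the RNA of the inactive X chromosome, was at 125.7 and 43.9 CPM in the control and 0.0791 and 56.1 CPM in the KO RNA libraries, so the sex of the embryos was not balanced in these RNA samples, and its part in the peak lists was not tested.

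**Figure D2:**
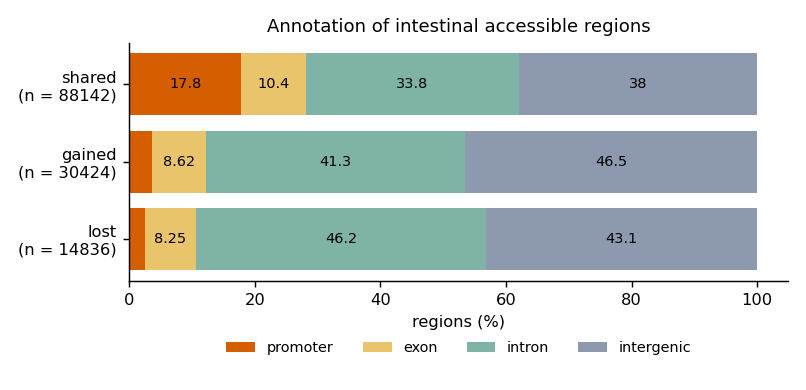
Annotation of shared, gained and lost intestinal regions, as stacked shares of regions (percent, horizontal axis) that lie at promoters, in exons, in introns or between genes. The promoter segment, 17.8% of the 88142 shared regions, shrinks to 3.65% of gained and 2.42% of lost regions, too small for a printed label.

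Gained and lost regions were poor in CpG. In a 300 bp window around the region centre, 14.0% of shared regions were CpG-rich, with a GC content of at least 50% and an observed to expected CpG ratio of at least 0.6. Of gained regions 0.94% met this definition, and of lost regions 0.755%. At promoters alone the shares were 61.7% for shared, 5.41% for gained and 5.57% for lost regions. Short motifs, searched on both strands, differed less. TATAAA was present in 14.6% of shared, 14.6% of gained and 19.1% of lost windows, beside 15.1% of all regions, and TAATTA, the core of many homeodomain sites, in 5.16%, 4.58% and 6.95%, beside 5.23% of all. CACGTG, an E-box, was found in 5.24% of shared, 4.99% of gained and 4.17% of lost windows (5.06% of all). TGANTCA, the core of AP-1 sites, was found in 9.05%, 10.8% and 11.0% (9.68% of all). The AP-1 pattern was added after values were seen, and a match describes letters only.

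Regions gained in the intestine had a peak in the *Eed* KO stomach more frequently than in the control stomach. The stomach lists were not used to define the regions. By the study's methods, however, both organs were dissected from each animal, so lists of a genotype can share embryos and processing. Of gained regions, 48.1% overlapped a peak of the KO stomach and 32.8% a peak of the control stomach. Over all intestinal regions these shares were 73.8% and 72.5%. Lost regions showed the opposite order, with 32.4% in the KO and 48.4% in the control stomach. A peak in the KO stomach without one in the control stomach was found at 7117 gained regions (23.4%) and at 8.64% of lost regions. Conversely, 3666 lost regions (24.7%) and 8.12% of gained regions had a peak in the control stomach alone. Among the gained regions with a -log10 q of at least 5, 78.7% had a peak in the KO stomach and 50.6% in the control stomach, and for the corresponding lost regions these shares were 42.3% and 74.3%. Shared regions were also open in the stomach, 90.3% in control and 89.6% in KO. Within the stomach itself, 17.6% of 139334 regions were gained and 16.5% were lost.

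Repeated sequence was common among the strongest gained regions. Of the 8 gained promoter regions with the highest -log10 q, 5 lay in the interferon cluster of chromosome 4, which holds tandem copies of type I interferon genes and predicted genes. The peak at *Gm13277*, whose sequence is given above, had a fold enrichment of 21.6 in KO intestine and 24.6 in KO stomach, with no peak in either control list. *Gm13277* had no count in any of the 4 intestinal RNA libraries. Only 17.6% of the 31-base words of this peak occur once in the genome, and the median word occurs 13 times. The intron peak of *Il31ra* was the most enriched of all gained regions (32.7-fold, -log10 q 364), but it was open in both stomach lists (28.0 in control and 25.9 in KO), and 2.97% of its words are unique. A peak in an exon of *Kpna1*, which encodes a nuclear import receptor, reached 11.5, with 20.8% unique words. In contrast, an intronic peak of a noncoding transcript near *Ccdc54* (12.8 in KO, 7.53 in control stomach and 19.9 in KO stomach) consisted of unique words throughout. Over the 16 strongest gained regions, 8 at promoters and 8 elsewhere, 9 had unique words for less than 50% of their length, compared with 6 of 305 gained regions taken at regular steps along the genome (1.97%) and 4 of 882 shared regions (0.454%). All 16 had a peak in the KO stomach, and 10 of them had none in the control stomach.

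The strongest lost regions were less repetitive than the strongest gained ones but included copies of mitochondrial DNA. A peak at the predicted gene *Gm10222* (chr1:24612535-24613240) was enriched 16.3-fold in control intestine (-log10 q 950) and 16.1-fold in control stomach, and was absent from both KO lists. Of its 25-base words, 93.8% also occur in the mitochondrial genome. Another such region, at *Gm13340* on chromosome 2, shared 68.3% of its words, and these were the only regions above 50% among 133396 regions examined. Reads from mitochondrial DNA can align to such copies, and their number in the libraries was not tested. *Rprl3*, a copy of the RNA component of ribonuclease P, had a peak of 11.9 in control intestine and 10.1 in control stomach and none in KO. The intron peak of *Srek1ip1* had 27.4 in control intestine, 30.4 in control stomach and 4.82 in KO stomach, with 69.6% unique words. Among the 16 strongest lost regions, 4 had unique words for less than 50% of their length, compared with 2 of 149 lost regions taken at regular steps (1.34%). Of the same 16, 9 had a peak in the control stomach but not in the KO stomach.

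Regions shared by both genotypes kept their strength within narrow limits. Over the 86724 shared regions with 1 peak in each list, the median log2 ratio of fold enrichment, KO over control, was -0.05, and the central 80% of regions ranged from -0.39 to 0.29. The KO value was over 1.5-fold higher at 1489 regions (1.72%) and the control value at 2689 (3.1%). After the median ratio was set to 0, these numbers were 2091 and 1960. Peaks were slightly wider in KO, with a median of 653 bp against 601 bp in control. The direction of these differences thus follows the centring, and the KO list as a whole had wider and lower peaks.

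At promoters, 18501 of 41668 genes (44.4%) had a peak within 1000 bp of their start in both genotypes. A peak in KO alone was present at 1300 genes (3.12%) and in control alone at 434 genes (1.04%), and 21433 genes had none. At 192 of the gained and 83 of the lost promoters, the control or KO peak of the same merged region lay outside the window. This applied to all 8 gained promoters of named genes with the highest -log10 q (among them *Xpnpep1*, *Loh12cr1*, *Tmem69*, *H2-Oa*, *Zbtb7a*, *Lmntd2* and *Zdhhc22*) and to 7 of the 8 such lost promoters (*Zfp389*, *Rasip1*, *Ido1*, *Gng3*, *S100a7a*, *Ptn* and *Car9*), the exception being *Rprl3*. *Xpnpep1*, which encodes an aminopeptidase, had a KO peak of 8.56 in the window, while its RNA was at 98.4 and 96.7 CPM in control and 104.4 and 105.7 CPM in KO (adjusted p = 0.704). The merged region at *Xpnpep1* is shared. Gained promoters had a peak in the KO stomach at 56.2% and in the control stomach at 33.6% of genes, and lost promoters at 39.4% and 47.5%. RefSeq promoter windows of 300 bp (GRCm38 annotation, 17944 genes matched) held a median of 5 CpG dinucleotides at gained and 4 at lost promoters, against 20 at promoters open in both and 13 over all.

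Among promoters open in both genotypes, 122 (0.659%) were over 1.5-fold higher in KO and 196 (1.06%) were over 1.5-fold higher in control. The highest ratio was at the start shared by *Hspa1a* and *Hspa1l*, genes of inducible and related HSP70 chaperones, where fold enrichment was 3.01 in control and 9.10 in KO. In the stomach it was 5.69 and 9.08. The control list instead had a lost region over the body of *Hspa1a* (chr17:34967685-34970100), 2416 bp wide with a fold enrichment of 3.21. RNA of *Hspa1a* was at 4.75 and 1.82 CPM in control and 4.85 and 17.7 CPM in KO, so the groups did not overlap but 1 KO library stood apart (adjusted p = 0.257). Other high ratios were at the zinc finger gene *Zfp951* (3.16 to 9.29), the histone H3 gene *Hist2h3c1* (2.63 to 7.24) and *Pik3ip1*, a negative regulator of PI3K (2.87 to 5.62). The lowest ratio was at the ribosomal protein gene *Rps10* (7.20 to 2.07), where the control stomach had 8.48 and the KO stomach no peak, although *Rps10* RNA was at 536.2 and 522.4 CPM in control and 581.5 and 437.5 CPM in KO. *Olfml2b* had 9.45 in control and 4.32 in KO, while its peak widened from 638 to 2994 bp. Within 10 kb of the *Olfml2b* start, peaks covered 1275 bp in control and 3129 bp in KO, so the fold fell while the covered stretch grew. *Foxl1*, a transcription factor of the mesenchyme beneath the epithelium, went from 4.47 to 2.16. At *Foxl1* the stomach moved the other way, from 2.04 to 5.48, and its RNA overlapped between the genotypes (20.9 and 24.5 CPM in control, 15.6 and 22.4 CPM in KO).

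**Figure D3:**
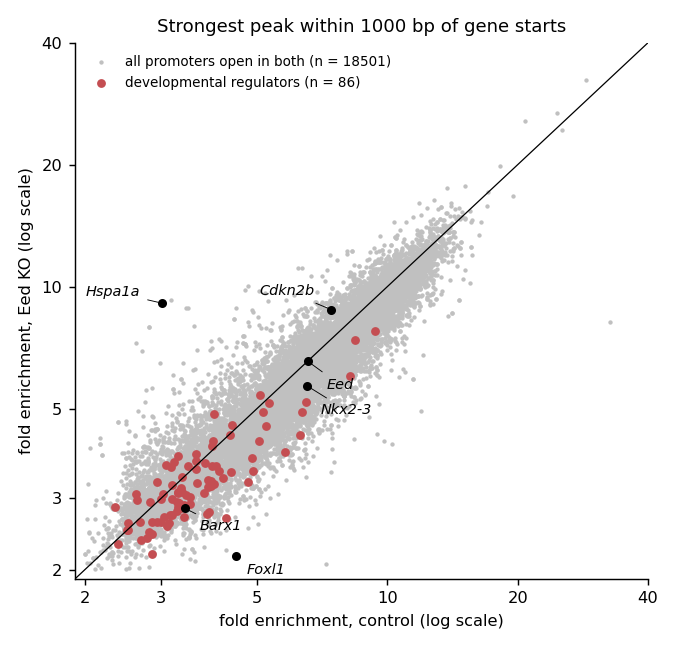
Fold enrichment of the strongest peak within 1000 bp of each gene start, *Eed* KO (vertical log axis) against control (horizontal log axis), for 18501 promoters open in both genotypes, with 86 developmental regulators in red and named genes in black. Points follow the diagonal line of equal values, with *Hspa1a* above it (3.01 in control, 9.10 in KO) and *Foxl1* below it (4.47 and 2.16).

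RNA of the same tissue gives a readout that played no part in defining the regions. It comes from 2 libraries per genotype with 30236159 to 36996971 gene counts each, and genotypes were compared by edgeR (quasi-likelihood F-test). A gene is called where its Benjamini-Hochberg adjusted p is under 0.05 and its log2 fold change exceeds 1 in either direction. Of 16218 genes tested, 386 were called higher (2.38%) and 37 lower (0.228%) in KO. *Eed* was at 38.1 and 40.1 CPM in control and 10.7 and 8.58 CPM in KO (log2 fold change -2.02, SE 0.21, adjusted p = 0.00464), and its promoter had 6.56 in control and 6.53 in KO. With spike-in scaling the log2 fold change of *Eed* was -0.23 and it was not called. The 2 libraries of a genotype are biological replicates by the study's methods, which do not say how many embryos each holds, and an exact permutation test of 2 against 2 cannot go below 0.333. All 12 mesenchyme markers, such as *Pdgfra* and *Col1a1*, and all 10 smooth muscle markers had a promoter peak in both lists. Spike-in scaling shifts the median log2 fold change of all genes by 1.85, so RNA changes here are relative to the other genes.

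Most genes called higher in KO were open at their promoters in both genotypes. Of the 386, 335 (86.8%) had a promoter peak in both lists, 17 had a gained promoter, none had a lost promoter and 34 had no promoter peak. Over all tested genes, 87.5% were open in both, so the share among the called genes was near that of all. Among the 335, no promoter was over 1.5-fold higher in KO and 6 were over 1.5-fold higher in control. Such promoters were rare among all 14173 tested genes open in both, with 58 higher in KO and 107 higher in control. The median log2 ratio of fold enrichment was -0.12 for the 335, beside -0.07 for all tested genes. Of 26 called genes without a single count in either control library, 22 had a promoter peak in both lists. Without control replicate 1, 60 genes were called higher and 48 of them were open in both, and without control replicate 2, KO replicate 1 and KO replicate 2 the numbers were 86 and 73, 338 and 296, and 175 and 146.

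Individual genes are given with the fold enrichment of their promoter peak and with their RNA. *Cdkn2a*, which encodes cell cycle inhibitors silenced by Polycomb, had a fold enrichment of 5.79 in control and 6.14 in KO. Its RNA was at 0.028 and 0 CPM in control and 10.3 and 15.8 CPM in KO (adjusted p = 0.000865). The neighbouring inhibitor *Cdkn2b* had 7.43 and 8.77, with RNA at 0 and 0.0673 CPM in control and 1.16 and 2.17 CPM in KO (adjusted p = 0.0228, not called without control replicate 1, control replicate 2 or KO replicate 2, where adjusted p was 0.064 to 0.171). At *Barx1*, a homeobox regulator of stomach mesenchyme, the promoter peak was 3.40 in control and 2.84 in KO. *Barx1* RNA was at 0.534 and 1.48 CPM in control and 9.47 and 13.2 CPM in KO (log2 fold change 3.53, SE 0.37, adjusted p = 0.00469). *Hoxb9* had 3.29 and 3.35, with RNA at 0.758 and 0.538 CPM in control and 17.0 and 17.2 CPM in KO (log2 fold change 4.70, adjusted p = 0.00047). *Cdkn2a*, *Barx1* and *Hoxb9* stayed called without any 1 of the 4 libraries, and at all 4 of these genes the KO libraries lay above the control libraries. The study tested accessibility with separate replicates and reported changes in both accessibility and expression for *Cdkn2b* and *Hoxb9* in the intestine. It also shows *Barx1* as an example of both. The fold of a pooled peak is another measure and cannot be set against that test. Within 10 kb of the start of *Cdkn2b*, peaks covered 791 bp in control and 1464 bp in KO.

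The other genes of interest had open promoters as well. The ligand gene *Wnt2* had a promoter peak of 5.81 in control and 4.61 in KO, with RNA at 0.0562 and 0.202 CPM in control and 1.74 and 2.94 CPM in KO (log2 fold change 4.20, adjusted p = 0.0222, called without KO replicate 1 but not without any of the other 3 libraries, where adjusted p was 0.0658 to 0.183). *Wnt11*, a ligand of noncanonical Wnt signalling, had 2.67 and 2.31, and its RNA did not pass (6.68 and 5.75 CPM against 13.1 and 8.78 CPM, adjusted p = 0.104). *Pitx1*, a homeobox factor, had 2.82 and 2.5, with RNA at 7.72 and 13.1 CPM in control and 24.4 and 24.2 CPM in KO (log2 fold change 1.23, adjusted p = 0.0473). *Pitx1* was not called without control replicate 1, KO replicate 1 or KO replicate 2 (adjusted p = 0.0924 to 0.2). At intestinal regulators the promoters were open too, with *Nkx2-3* at 6.51 in control and 5.70 in KO, *Hand1* at 2.96 and 2.48, and *Hoxa11* at 2.46 and 2.54. None of these intestinal genes was called in RNA, with adjusted p = 0.924 for *Nkx2-3*, 0.949 for *Hand1* and 0.689 for *Hoxa11*.

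Few tested genes had a gained promoter, and most of these were not called in RNA. Of 246 tested genes with a gained promoter, 17 were called higher (6.91%) and 1 lower, beside the 2.38% over all genes. Where the whole merged region was gained, the number was 13 of 198 (6.57%). The count rests on single libraries: it was 1 of 277 without control replicate 1, 4 of 281 without control replicate 2, 9 of 275 without KO replicate 1 and 7 of 280 without KO replicate 2. Over all genes the called share then also dropped, to 0.358%, 0.51%, 2.02% and 1.04%. Without the filter on low counts 27 of 734 such genes were called higher (3.68%, beside 2.89% over all), and with spike-in scaling 159 of 246 (64.6%), a smaller share than the 84.2% over all. Of 69 tested genes with a lost promoter, edgeR called 0 lower and 0 higher, beside 0.228% lower over all genes. At an unadjusted p under 0.05, 7 were lower and 3 higher, beside 522 lower and 1750 higher of all 16190 tested genes with a start. DESeq2 called 2 of 104 such genes lower, and edgeR without its filter on low counts called 3 of 249. Over all genes these settings called 54 and 66 lower.

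The 17 genes include regulators and genes of endothelium and neurons. *Mecom*, a zinc finger transcription factor of the stomach list, had no peak at its outermost start in either control tissue and a peak of 2.92 in KO intestine and 3.22 in KO stomach. The study names *Mecom* as a gene of the stomach, and whether this start is the one in use was not tested. In the intestine, *Mecom* RNA was at 0.197 and 0.202 CPM in control and 1.69 and 2.25 CPM in KO (log2 fold change 3.28, SE 0.31, adjusted p = 0.00324). *Stmn2*, a neuronal microtubule regulator, gained a peak of 3.96, with RNA at 1.21 and 1.35 CPM in control and 22.7 and 11.2 CPM in KO (log2 fold change 3.73, adjusted p = 0.00346). Neither gene was called without control replicate 1 (adjusted p = 0.05003 for *Mecom* and 0.0562 for *Stmn2*). *Nrn1*, a neuritin gene, was called whichever library was left out (0.477 and 0.605 CPM in control, 10.7 and 8.07 CPM in KO, log2 fold change 4.12, adjusted p = 0.0029), but the gain at its start is of the kind where the control peak ends outside the window. The same holds for *Dlx6os1*, *Acot3* and *Adcyap1*. *Dlx6os1*, a noncoding transcript of the *Dlx5* and *Dlx6* locus, had no count in control and was at least 6.03-fold higher in KO, and the acyl-CoA thioesterase gene *Acot3* was at least 3.00-fold higher. Leaving out any of the 4 libraries ended both calls, with adjusted p from 0.0619 to 0.194.

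Several of the 17 genes are endothelial. *Cdh5*, which encodes VE-cadherin, gained a promoter peak of 2.30 and rose from 1.43 and 1.82 CPM to 10.7 and 11.9 CPM (log2 fold change 2.80, SE 0.35, adjusted p = 0.00969). *Esam*, an endothelial adhesion molecule, gained a peak of 2.51, with RNA at 0.927 and 1.78 CPM in control and 4.80 and 4.68 CPM in KO (log2 fold change 1.82, adjusted p = 0.0283). *Cd93* (peak 2.53, RNA at 2.13 and 1.75 CPM in control and 9.65 and 10.6 CPM in KO), *Robo4* and *Myct1* were also called higher. None of these 5 was called without control replicate 1, with adjusted p from 0.0686 for *Cd93* to 0.211 for *Robo4*, and *Esam* alone was called without control replicate 2. Without KO replicate 1 or without KO replicate 2, *Cdh5* and *Cd93* stayed called and the other 3 did not (adjusted p = 0.0623 to 0.0831). Of 12 endothelial markers, the promoters of 6 were open in both lists, 3 were gained (*Cdh5*, *Esam* and *Pecam1*), 1 was lost (*Emcn*) and 2 had no peak. Over all genes, 3.12% of promoters were gained and 1.04% lost. *Pecam1* had RNA at 2.53 and 3.50 CPM in control and 10.3 and 9.27 CPM in KO (adjusted p = 0.0509). The summed level of the list was 24.1 and 28.8 CPM in control and 69.8 and 68.0 CPM in KO. Across the list, 7 of 12 markers were called higher, beside 2.38% over all genes. This count was 1 without control replicate 1, 2 without control replicate 2, 3 without KO replicate 1 and 2 without KO replicate 2. Of the 7, *Cdh5* and *Esam* had a gained promoter, *Sox17*, *Sox18*, *Cldn5* and *Erg* were open in both lists and *Tie1* had no promoter peak. *Emcn*, with the lost promoter, had RNA at 0.506 and 0.538 CPM in control and 1.61 and 1.31 CPM in KO (adjusted p = 0.137). All libraries come from sorted GFP+ cells of the *Bapx1* lineage, a gate meant to leave out cells of other lineages. In bulk samples, more endothelial cells and more RNA per cell cannot be told apart, and the part of such cells in the gained peaks was not tested. Markers of macrophages went the other way in sum (11.5 and 13.3 CPM in control, 9.13 and 8.01 CPM in KO), as did those of enteric neural crest (443.7 and 356.7 CPM against 223.8 and 328.8 CPM). The median log2 fold change, however, was 0.386 over the 4 tested macrophage markers and 0.39 over the 10 neural crest markers. The sums thus follow the more abundant members, and 0 markers of either list were called by edgeR.

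**Figure D4:**
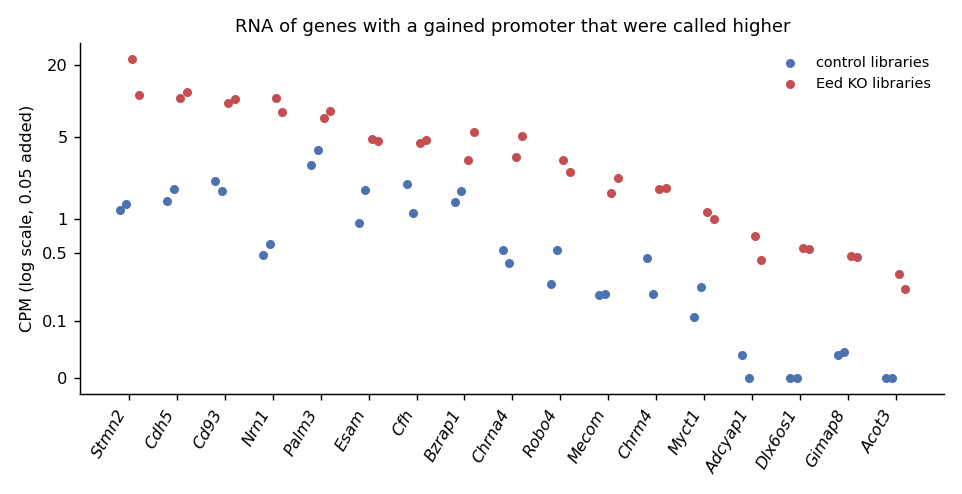
RNA of the 17 genes with a gained promoter that were called higher, as CPM (vertical log axis, 0.05 added) in the 2 control and 2 *Eed* KO intestinal libraries, each point being a library. For every gene both KO libraries lie above both control libraries, from *Stmn2* with 22.7 and 11.2 CPM in KO to *Acot3* with no count in control. The genes were chosen by their call in these same libraries, so this order is no separate evidence.

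Around developmental regulators, accessible chromatin spread, while the fold enrichment of their promoter peaks was no higher. Fold enrichment was not adjusted for peak width. A list of 93 genes, called Polycomb-silenced developmental regulators here, holds homeobox and other transcription factors that PRC2 is known to hold silent. It also holds *Bmi1*, a Polycomb subunit gene that was expressed in control. Of the 93 promoters, 86 were open in both genotypes, 0 were lost and 5 had no peak. The 2 gained ones were *Dlx1*, where the control peak ends outside the window, and *Six3*. For the genes of the list, the median fold enrichment at promoters open in both was 3.41 in control and 3.20 in KO (median log2 ratio -0.17, beside -0.07 over all promoters). Within 10 kb of their starts, however, 341.1 kb were covered by control peaks and 447.4 kb by KO peaks, a ratio of 1.31. The ratio over all genes was 1.15. For 30 of the 93 (32.3%) the accessible length was over 1.5-fold longer in KO and for 0 it was over 1.5-fold shorter. Over all 27861 genes with a peak in both lists, 18.0% were longer and 5.42% shorter. In the stomach the ratios were 1.24 for the list and 1.12 over all genes. With a -log10 q of at least 5 in both lists, the intestinal ratio was 1.25 for the list (26 of 84 longer, 3 shorter) and 1.09 over all genes. With the 80000 strongest peaks of each list it was 1.27 (28 of 93 longer, 6 shorter), beside 1.09. Windows of neighbouring genes overlap, so that genes of a cluster share some of this length. Small marker lists had higher intestinal ratios, with 1.74 for 7 skeletal muscle, 1.44 for 7 mesothelium and 1.37 for 8 erythroid markers. Of their tested members, edgeR called 0 higher and 0 lower. The longer stretch was thus not particular to developmental regulators.

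Homeobox genes of the *Dlx* group were among those that added most. *Dlx6*, a regulator of limb and craniofacial patterning, had 2339 bp of accessible chromatin within 10 kb in control and 8452 bp in KO, while its promoter peak stayed at 3.96 and 4.15. Its RNA had no count in control and reached 1.42 and 2.31 CPM in KO, at least 20.6-fold higher (adjusted p = 0.00791, and 0.0614 without control replicate 1). *Dlx5* went from 3185 to 6663 bp and *Dlx4* from 2406 to 5891 bp. *Barhl1*, a neuronal homeobox gene, went from 1975 to 6168 bp and *Pax7*, a regulator of muscle and neural crest progenitors, from 3277 to 6807 bp. A longer accessible stretch did not always come with RNA: *Barhl1* had no count in either KO library, and *Pax7* was at 0 and 0.0856 CPM. In the other direction *Pax9* went from 5127 to 3899 bp while its RNA rose from 0.0281 and 0.101 CPM to 0.976 and 0.97 CPM (log2 fold change 3.91, adjusted p = 0.035), a call that was lost without any of the 4 libraries (adjusted p = 0.0644 to 0.254). *Barx1*, described above, went from 4051 to 6119 bp and *Mecom* from 221 to 1460 bp.

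More than 50% of the tested list rose in RNA. Of its 75 tested members, 39 were called higher and 0 lower by edgeR, beside 2.38% and 0.228% of all genes. The other members of the 93 did not pass the filter on low counts. Without that filter 56 of 93 were called higher, beside 2.89% over all genes. Members without a control count, such as *Dlx6* and *Pax6*, passed the filter only through other libraries and could not be called lower. The number called higher was 9 of 79 without control replicate 1, 14 of 79 without control replicate 2, 35 of 79 without KO replicate 1 and 24 of 78 without KO replicate 2. The summed level of the list was 186.6 and 224.3 CPM in control and 553.6 and 566.3 CPM in KO. Of this, *Bmi1* alone gave 101.0 and 97.83 CPM in control and 268.3 and 236.3 CPM in KO. The list was drawn up with earlier results of these samples known, so its direction is not independent evidence. Over all genes, those with an accessible length over 1.5-fold longer were called higher in 92 of 1947 cases (4.72%), beside 380 of 15504 (2.45%) for all tested genes with such a length and 6 of 434 (1.38%) for those over 1.5-fold shorter. Seen from the RNA, 24.2% of the genes called higher were longer, beside 12.6% of tested genes, and this share lay between 21.1% and 28.1% with any single library removed. Of 26 genes called lower with such a length, 7 were longer (26.9%) and 4 were shorter (15.4%). A longer stretch was thus not particular to genes called higher. A gained region lay within 10 kb of 35.2% of the genes called higher, compared with 21.4% of all tested genes. For lost regions these shares were 11.4% and 8.93%. Genes called higher also had more accessible length in control, with a median of 2112.5 bp against 1531 bp.

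**Figure D5:**
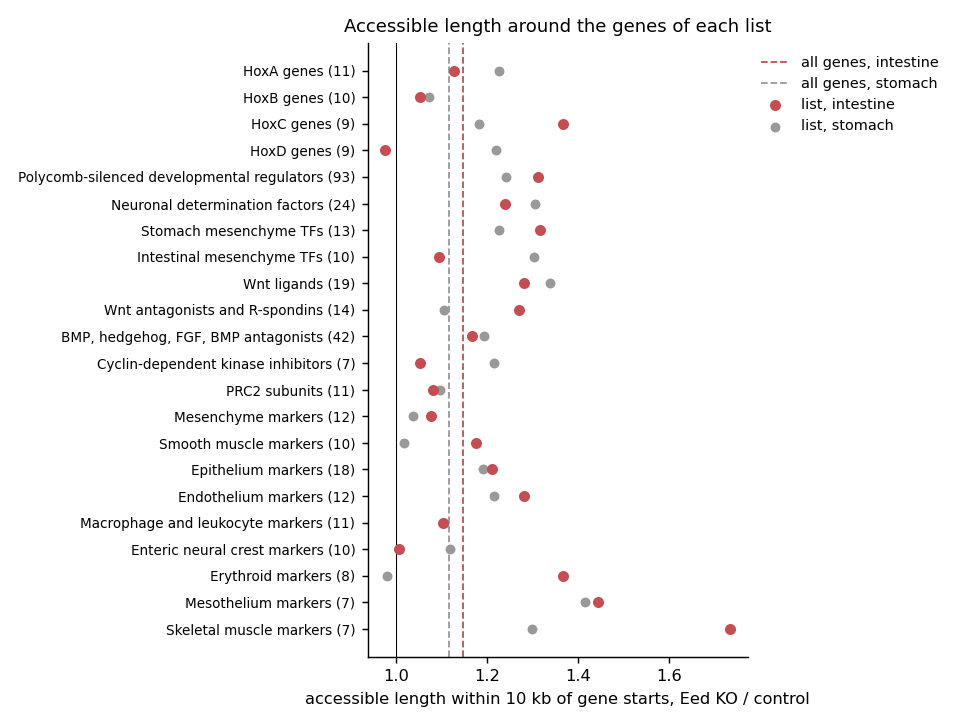
Ratio of accessible length within 10 kb of gene starts, *Eed* KO over control (horizontal axis), for each gene list (number of genes in brackets) in the intestine (red) and stomach (grey), with dashed lines for all genes. Most lists lie to the right of 1, developmental regulators at 1.31 and *HoxC* genes at 1.37 in the intestine, beside 1.15 over all genes. The highest intestinal ratio is that of skeletal muscle markers (1.74).

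The *Hox* clusters, which set position along the body axis, differed among themselves. All 9 *HoxC* and all 9 *HoxD* promoters were open in both lists, as were 10 of 11 *HoxA* (not *Hoxa6*) and 9 of 10 *HoxB* promoters (not *Hoxb3*). Accessible length around *HoxC* genes went from 35.2 to 48.1 kb, a ratio of 1.37, which was 1.22 with a -log10 q of at least 5 and 1.13 with the 80000 strongest peaks of each list. The ratio was 1.13 for *HoxA*, 1.05 for *HoxB* and 0.976 for *HoxD* genes. Across the whole *HoxC* cluster, peaks covered 21.2% of the sequence in control and 26.3% in KO, with 9 gained and 3 lost regions, whereas the *HoxD* cluster stayed at 25.3% and 25.1%. In the stomach the order was different, with 1.18 for *HoxC* and 1.22 for *HoxD*. In RNA, *Hoxc9* rose from 6.68 and 5.82 CPM to 18.3 and 15.3 CPM (log2 fold change 1.42, adjusted p = 0.0118), and *Hoxc11* and *Hoxc13* were called higher too. None of the 3 was called without control replicate 1 or without control replicate 2, where adjusted p was 0.0885 and 0.0987 for *Hoxc9*. *Hoxc11* was also lost without KO replicate 1 (adjusted p = 0.0756), and *Hoxc13* without KO replicate 1 (0.0531) or KO replicate 2 (0.064). No *HoxD* gene was called. *Hoxb13*, a gene of the caudal end, had no RNA count in control and was at least 84.4-fold higher in KO, with promoter peaks of 3.72 and 4.63, while the accessible length around it went from 6368 to 3592 bp. *Hoxa4*, *Hoxa5* and *Hoxb5* were called lower with open promoters in both lists, *Hoxa4* from 39.3 and 32.6 CPM to 9.20 and 10.7 CPM (log2 fold change -1.85, adjusted p = 0.00135). With spike-in scaling none of these 3 was called, with log2 fold changes of 0.03, 0.72 and 0.64. *Hoxb13*, *Hoxa4* and *Hoxb5* stayed called without any 1 library, and *Hoxa5* was lost without control replicate 1 (adjusted p = 0.0741) or control replicate 2 (0.0651).

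Other gene groups differed in how much accessible length they added, to be read beside the ratio of 1.15 and the 2.38% called higher over all genes. Transcription factors of stomach mesenchyme, 13 genes, went from 46.8 to 61.5 kb (1.32), with 12 promoters open in both and 1 gained, *Mecom*. Of these 13, 8 were called higher (among them *Lhx9*, *Mecom*, *Nkx6-1*, *Sox9*, *Barx1*, *Pitx1* and *Isl1*), 1 without control replicate 1, 5 without control replicate 2 and 6 without either KO library. Transcription factors of intestinal mesenchyme, 10 genes, were all open in both lists, with a ratio of 1.09 and no gene over 1.5-fold longer, and edgeR called 0 of 10 in RNA. These stomach and intestinal lists were chosen with expression in these samples known. Of 19 Wnt ligand genes, 16 were open in both, 1 was gained (*Wnt8b*) and 2 had no peak (ratio 1.28), and 2 of 13 tested, *Wnt6* and *Wnt2*, were called higher, *Wnt6* not without control replicate 1, control replicate 2 or KO replicate 2 (adjusted p = 0.0686 to 0.136). Among 14 Wnt antagonists and R-spondins the ratio was 1.27 and *Rspo4* alone was called higher of 13 tested, and not without any of the 4 libraries (adjusted p = 0.0733 to 0.208). Ligands of the BMP, hedgehog and FGF families, with BMP antagonists, had a ratio of 1.17, with 40 of 42 promoters open in both and 2 of 31 tested called higher. Of 7 cyclin-dependent kinase inhibitors, 6 promoters were open in both (not *Cdkn1a*), the ratio was 1.05, and *Cdkn2a*, *Cdkn2b*, *Cdkn2c* and *Cdkn1a* were called higher, the last 3 not without control replicate 1, control replicate 2 or KO replicate 2 (adjusted p = 0.0569 to 0.244). The 11 PRC2 subunit genes were open in both, with a ratio of 1.08. The ratios from 1.05 to 1.17 lie near that of all genes. Neuronal determination factors, 24 genes, had 21 open, 1 gained (*Nhlh1*) and 1 lost (*Nhlh2*), a ratio of 1.24, and 8 genes tested with 0 called by edgeR.

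Regions outside promoters were set beside the RNA of their nearest gene. Genes nearest to a gained region were called higher in 207 of 6186 cases (3.35%), those nearest to a lost region in 98 of 3802 (2.58%), and those nearest to a shared region in 277 of 9490 (2.92%). Over all tested genes the share was 2.38%, below each of these. The shares called lower were 0.275%, 0.368% and 0.253%, beside 0.228% over all. These sets of genes overlap, since a gene can be nearest to regions of each kind.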

How the data were processed

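ATAC-seq and RNA-seq were analysed from the deposited files, on mm10 (GRCm38). For ATAC-seq the authors trimmed reads (Trimmomatic), aligned them (BWA), kept high-quality reads, pooled replicates and called broad peaks with MACS2 2.1.2. The deposited lists give a fold enrichment (no value under 2) and a -log10 q per peak, reach down to a -log10 q near 1 and include chromosome X. RNA counts were deposited by the authors as whole numbers per gene (STAR and featureCounts, GENCODE vM4, with spike-in transcripts).

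Regions were merged in Python 3.11.15 and checked against bedtools 2.31.1. Gene starts came from exon coordinates in an adult count file. The 8 embryonic RNA libraries were fitted together with edgeR 4.0.16 (TMM, filterByExpr, 4 group means, quasi-likelihood F-test, Benjamini-Hochberg over 16218 genes), tested on simulated data. CPM values are TMM-scaled. Where a gene had no control count, folds are lower bounds against 3 counts per library, which covers counting error only. Genes named are those the study names, the 8 strongest of each kind, the 8 highest and lowest promoter ratios, list members with gained or lost promoters, and called genes with such promoters. *Gm* genes at the strongest regions, the *Hspa1a* body, *Xist* and genes by accessible length were named after their values were seen. Members and lists were chosen with earlier results of these data known. Accessible length, copy number, repeat and mitochondrial measures were added after the data were seen, as was the rule of a -log10 q of at least 5 with no peak in the other list, the promoter state taken from merged regions, and the length under other thresholds. Alternatives were other peak thresholds, list sizes, merging, overlaps and windows, and for RNA DESeq2 1.42.0, no filter, spike-in scaling, intestinal libraries only, a replicate block and each library left out. Adult counts were not used here, and some genes and a sequence that met these rules are not reported here.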

Additional observations from a re-analysis of the deposited data

How the results depend on the processing

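Counts of regions and promoters depended on the peak threshold. Relative to 30424 gained, 14836 lost and 88142 shared regions, 1300 gained promoters, and 3.65% and 2.42% of gained and lost regions at promoters, a -log10 q of at least 2 in both lists gave 20076 gained regions with 4.08% at promoters. A -log10 q of at least 5 in both lists gave 10315 gained, 9072 lost and 48799 shared regions, 739 gained promoters, and 5.62% and 4.11% at promoters. The 80000 strongest peaks of each list gave 13984 gained regions, 787 gained promoters, and 4.37% and 2.79%. A reciprocal overlap of 50% gave 50006 gained and 34633 lost peaks, with 4.77% and 4.60% at promoters. A window of 500 bp gave 2.73% and 1.75%, and a window of 5000 bp gave 1978 gained promoters, 13.3% and 10.2%. A -log10 q of at least 5 with no peak in the other list, chosen after seeing the data, left 3815 gained and 1289 lost regions, with 4.22% and 3.26% at promoters. Merging within 250 bp, leaving out chromosome X and taking promoter states from merged regions (1108 gained, 351 lost) moved no count by over 1.5 times. The 386 genes called higher became 595 with DESeq2, 734 without a filter, 217 with intestinal libraries alone, 13664 with spike-in scaling and 60 to 338 with each library left out. The 37 called lower became 66 without a filter, 24 with spike-in scaling and 11 to 28 with each library left out. With the replicate block, 575 genes were called higher and 56 lower. Deviations of same-numbered libraries correlated at 0.0993 over 2 pairs, so the numbers are not taken as pairs. Spike-in scaling turned the sign of 7 of 56 named genes, by its shift of all genes: *Car9* (1.86), *Foxl1* (1.71) and *Rps10* (1.71), which it called higher, and *Nkx2-3* (1.63), *H2-Oa* (0.90), *Hist1h2al* (0.62) and *Gng3* (0.44), which were called under neither scaling. The cause of the other moves was not tested, apart from fewer peaks or libraries entering by construction. Peak lists hold no read counts, so depth behind the peaks is unknown and a peak absent from a list is a peak under its threshold.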
